A study of Homo sapiens with 3 samples.

Results

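The heat shock proteins described here are 10 genes: the cytosolic chaperones HSPB1, HSPA1A, HSPA1B, HSPA8, HSP90AA1, HSP90AB1, HSPH1 and DNAJB1, and the mitochondrial pair HSPD1 and HSPE1. They were chosen by symbol, and all 10 were found among the 58302 genes of the count tables. The 3 libraries were made from total RNA of C4-2, a human prostate adenocarcinoma line derived from LNCaP, labelled wild type and with no treatment named. They form 1 group of 3 replicates, and the design also names neuroendocrine lines and depletion of neuropilin-2, which were not analysed here. C4-2 is a single line, and nothing in the labels says whether the replicates were separate cultures, so each p-value covers the spread among these 3 libraries alone and that spread may be technical.

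Heat shock proteins are chaperones, which hold, fold or refold other proteins. HSP70 proteins bind short exposed stretches of a client in a cycle driven by ATP. J-domain proteins such as DNAJB1 start that cycle, and HSP110 proteins such as HSPH1 reset it by exchanging nucleotide. HSP90 acts later, on clients that include kinases and steroid hormone receptors. HSPB1 is a small heat shock protein that holds unfolded clients without ATP. HSPD1 and HSPE1 form the barrel and the lid of the mitochondrial chaperonin. Under stress the factor HSF1 binds heat shock elements, repeats of the unit GAA and its reverse complement TTC, and raises the inducible members.

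The promoters of these genes are shown first. The choice by symbol did not read their sequence, but HSF1 raises the inducible members through the heat shock element. How often the element occurs among the members is therefore not independent of the choice. Promoter windows of 300 bases, 250 before and 50 after each start, were read from RefSeq on GRCh38.p14. All 10 members matched, with 16 windows, since several have more than 1 start. Capitals mark the units of each element of 2 or 3 units. Bases inside an annotated exon were left out, which shortens the stretches.
HSPA1A, chr6:31815293-31815463, plus strand: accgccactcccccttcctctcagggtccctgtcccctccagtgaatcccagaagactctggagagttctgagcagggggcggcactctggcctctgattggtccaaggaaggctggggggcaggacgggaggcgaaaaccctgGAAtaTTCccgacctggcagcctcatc
HSPA1B, chr6:31827488-31827734, plus strand: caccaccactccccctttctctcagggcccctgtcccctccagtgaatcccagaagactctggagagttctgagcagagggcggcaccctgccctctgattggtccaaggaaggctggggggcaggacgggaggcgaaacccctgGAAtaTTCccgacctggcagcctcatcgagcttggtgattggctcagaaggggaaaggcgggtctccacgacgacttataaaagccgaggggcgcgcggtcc
HSPB1, chr7:76302423-76302543, plus strand: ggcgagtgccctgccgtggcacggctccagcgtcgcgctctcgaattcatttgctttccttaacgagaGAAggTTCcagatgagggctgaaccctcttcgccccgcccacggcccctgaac
HSP90AB1, start 3 of 3, chr6:44247693-44247865, plus strand: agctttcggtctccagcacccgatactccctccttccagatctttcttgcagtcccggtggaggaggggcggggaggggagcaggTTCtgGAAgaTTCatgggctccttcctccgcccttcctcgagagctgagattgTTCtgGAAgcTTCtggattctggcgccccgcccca
DNAJB1, start 2 of 3, chr19:14518421-14518647, minus strand: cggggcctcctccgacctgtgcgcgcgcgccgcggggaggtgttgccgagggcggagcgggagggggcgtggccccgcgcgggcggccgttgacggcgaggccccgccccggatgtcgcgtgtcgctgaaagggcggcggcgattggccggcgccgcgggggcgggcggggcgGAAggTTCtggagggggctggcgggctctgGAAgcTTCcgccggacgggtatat

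The promoters of HSPA1A and HSPA1B are near copies: 235 of 251 aligned columns of the 250 bases before the start were identical (93.6%). An element of 2 units was counted as GAANNTTC or TTCNNGAA on either strand. An element of 3 units continues either form by NN and the next alternating unit, so each match of 3 units holds matches of 2. A 2-unit element stood in the windows of 8 of the 10 members (9 of 16 windows), and 13.5% of all 35116 windows in the table held it. A 3-unit element stood in the windows of 4 of the 10 members (4 of 16 windows), against 0.490% of all windows. In HSPH1 and HSPE1 no window held either, which says only that these letters are not in these windows.

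The longer elements are given alone, because most of the windows around them lie in annotated exons.
HSPA8, chr11:123062354-123062366, minus strand: GAAagTTCcaGAA
HSPA8, chr11:123062179-123062191, minus strand: TTCtgGAAggTTC
HSP90AA1, start 2 of 2, chr14:102087120-102087132, minus strand: TTCcgGAAggTTC
HSPD1, start 2 of 2, chr2:197500068-197500085, minus strand: TTCtgGAAagTTCtgGAA
Counted from the start, the elements of HSPA8 began at −230 and −55, that of HSP90AA1 at −88 and that of HSPD1, which runs to 4 units, at −245. HSPD1 and HSPE1 are divergent neighbours on chromosome 2, with HSPD1 starts at 197500274 and 197499840 and the HSPE1 start at 197500379. The element lies between the HSPD1 starts, upstream of the second and downstream of the first. Other promoter features were mixed. TATAAA, on either strand, stood only in the windows of HSPA1A and HSPA1B among the members (2 of 16 windows, against 11.5% of all windows). CCAAT was found in 7 of 16 windows (5 members), against 34.6% of all windows, and GGGCGG in 15 of 16 (9 members), against 45.0%.

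The libraries held 51200272, 47513470 and 49965601 reads assigned to genes in replicates 1, 2 and 3. Of genes with 1 to 20 reads, 78.6%, 75.1% and 81.6% had an even count in replicates 1, 2 and 3, the pattern given when both mates of a read pair are counted by themselves. The cells carried the luminal markers of their label: 10 of 10 were detected, meaning at least 10 reads in every library, with KLK3 at 1439.7 TPM the highest. TPM is a gene's reads per length, scaled to the same total in every library. Of 10 neuroendocrine markers 7 were detected and 3 reached 1 TPM, the highest being ENO2 at 12.3 TPM, while NEUROD1 had 0 reads. Of 10 markers of immune, endothelial, fibroblast and basal cells 3 were detected: COL1A1 at 10.2 TPM, VWF at 3.68 TPM and PDGFRB at 1.17 TPM. CD3E, KRT5 and TP63 had 0 reads, which for independent reads allows up to 0.0631 CPM, a gene's reads scaled by the library total without length, in the smallest library, and more where mates are counted by themselves.

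All 10 members were detected, and 6 of them exceeded 100 TPM, where 71.8% of protein-coding genes were detected and 1349 of 19708 reached 100 TPM. Together they took 0.754%, 0.740% and 0.743% of assigned reads in replicates 1, 2 and 3. Their summed level was 6829.8 ± 101 TPM (SD, n = 3, as for all values below). The median of the 10 levels was 328 ± 16.9 TPM, beside a median of 5.43 TPM over all protein-coding genes. In bulk RNA, a higher share of expressing cells and more RNA per cell cannot be told apart.

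**Figure D1:**
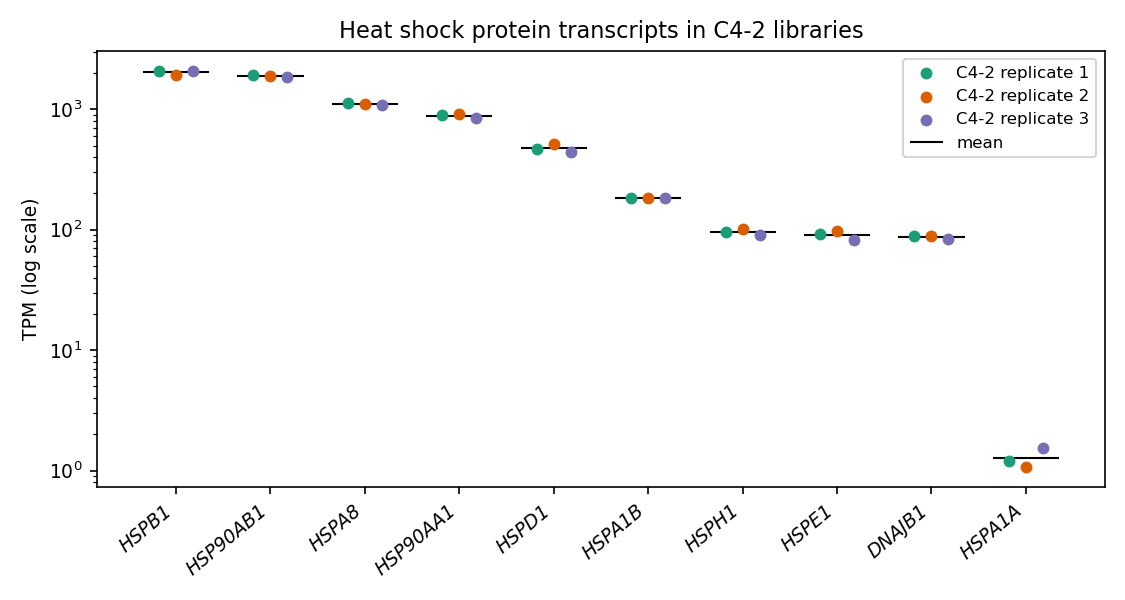
TPM of each member (log axis) in the 3 C4-2 libraries, with points for libraries and a bar for the mean, ordered by level. The members run from HSPB1 at 2032 TPM to HSPA1A at 1.27 TPM.

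HSPB1, the small heat shock protein, had the highest level of the 10. It reached 2092, 1908 and 2095 TPM in replicates 1, 2 and 3, or 2032 ± 107 TPM, and ranked 26 from the top of 19708 protein-coding genes. Replicate 2 was the low library. HSPB1 is annotated on chromosome 7 (76302544 to 76304295, plus strand), with a merged exon length of 1634 bases in 2 merged exons and 63.2% GC, the highest GC of the members.

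The other small heat shock proteins were far lower. Of 10 genes of this list 6 were detected and 5 reached 1 TPM, and the list median was 0.773 TPM. The gene formerly named HSPB11, now IFT25 and listed here by its older name, lay at 28.7 ± 2.11 TPM. HSPB9 lay at 2.67 ± 0.450 TPM. CRYAB, the alpha-crystallin B chain and a stress-inducible relative of HSPB1, had 61, 60 and 60 reads, or 1.22 ± 0.0542 TPM. CRYAA, the lens alpha-crystallin A chain, had 0 reads. HSPB1 exceeded CRYAB by 10.59 ± 0.14 log2 units (exact two-sided sign-flip permutation test p = 0.25, adjusted p = 0.25 over 8 pairs, 3 of 3 libraries). With 3 libraries 0.25 is the smallest p this test allows, so no pair could pass 0.05. CRYAB shares 20.6% of its exon bases with HSPB2, on the opposite strand, and reads there were not counted.

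The HSP90 genes followed, with the constitutive form above the inducible one. HSP90AB1, the constitutive cytosolic HSP90, had 1915, 1882 and 1855 TPM in replicates 1, 2 and 3. HSP90AA1, the stress-inducible form, had 890.2, 909.97 and 845 TPM in the same libraries. The ranges of these genes did not overlap, and HSP90AB1 was higher in 3 of 3 libraries. The difference was 1.10 ± 0.04 log2 units, or 2.14-fold (exact sign-flip p = 0.25, adjusted p = 0.25). It fell to 0.28 log2 units when reads were not scaled by length and was 0.62 with the length of the canonical transcript, since HSP90AA1 has the longer exon set (5248 bases, against 2980 bases for HSP90AB1). HSP90AB1 is on chromosome 6 (44246166 to 44253888, plus strand) and HSP90AA1 on chromosome 14 (102080738 to 102139699, minus strand), where 3.75% of its exon bases overlap WDR20 on the other strand.

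The ranges of HSPB1 and HSP90AB1 over the libraries overlapped, although HSPB1 was higher within each of the 3 libraries. HSPA8, the constitutive HSP70, was next at 1120.1, 1098 and 1084 TPM, or 1101 ± 18.1 TPM. Its range lay below that of HSP90AB1 and above that of HSP90AA1. HSPA8 is on chromosome 11 (123057489 to 123063230, minus strand), and its introns hold small nucleolar RNA genes, of which SNORD14C and SNORD14D overlap 1.81% and 1.79% of its annotated exon bases.

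The inducible HSP70 copies differed from each other. HSPA1B had 7742, 7083 and 7678 reads and HSPA1A 50, 41 and 64 reads in replicates 1, 2 and 3. On the TPM scale HSPA1B reached 183, 182 and 182, against 1.20, 1.07 and 1.54 for HSPA1A. The difference was 7.07 ± 0.25 log2 units, or 144-fold, with HSPA1B higher in 3 of 3 libraries (exact sign-flip p = 0.25, adjusted p = 0.25). The genes are neighbours on chromosome 6, each a single exon: HSPA1A at 31815464 to 31817946 and HSPA1B at 31827735 to 31830255, both on the plus strand.

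These copies share most of their sequence, so the split is uncertain. Of the 50-base words in the exon of HSPA1A, 72.6% occurred also in HSPA1B, and of those of HSPA1B 71.4% occurred in HSPA1A. The words found once on the chromosomes of hg38 were 27.4% of those of HSPA1A and 28.6% of those of HSPA1B, so both genes had a like share of sequence that can be told apart. With 100-base words these shares were 30.1% and 31.2%. When the alternate haplotypes of the assembly were counted as well, 0% of the words of either gene occurred once. Whether the authors aligned to a genome with those haplotypes is not given in the sources used here. Whether sequence differences between C4-2 and the reference move reads between the copies was not tested.

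Taken as a sum, the inducible copies lay below the constitutive HSP70. HSPA8 averaged 1101 ± 18.1 TPM and HSPA1A plus HSPA1B 184 ± 0.312 TPM, a difference of 2.58 ± 0.02 log2 units or 5.99-fold (exact sign-flip p = 0.25, adjusted p = 0.25, 3 of 3 libraries). The size depended on the length used. It fell to 0.92 log2 units when lengths were reduced to words found once, and was 1.02 when words touching another gene were also left out. It was larger, at 3.68, with canonical transcript lengths, and at 3.52 without length scaling.

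**Figure D2:**
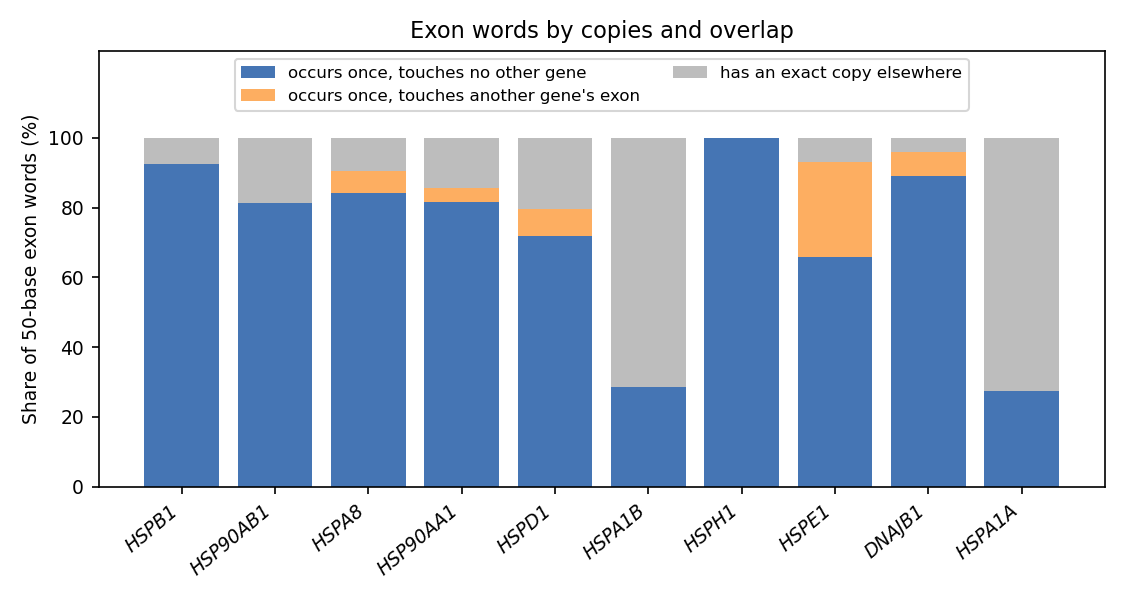
Share of each member's 50-base exon words (%, bars starting at 0) that occur once on the hg38 chromosomes and touch no exon of another gene, that occur once but touch another gene, or that have an exact copy. HSPA1A and HSPA1B stand at 27.4% and 28.6% in the first class, and HSPH1 at 99.9%.

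HSP70 is served by co-chaperones, of which HSPH1 and DNAJB1 took places 7 and 9 among the 10 members. They ranked 1409 and 1599 from the top of 19708 protein-coding genes. HSPH1, an HSP110 exchange factor, had 96.5, 101 and 90.9 TPM in replicates 1, 2 and 3. Its relative HSPA4 had 159, 174 and 157 TPM in those libraries, above HSPH1 in 3 of 3. The difference of HSPH1 minus HSPA4 was −0.76 ± 0.04 log2 units (exact sign-flip p = 0.25, adjusted p = 0.25). It shrank to −0.20 with canonical transcript lengths and to −0.06 without length scaling, so its size rests on the 8390 bases of merged exons of HSPH1. HSPH1 is on chromosome 13 (31134974 to 31162388, minus strand) and has the lowest exon GC of the members, 38.1%.

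DNAJB1, a J-domain protein and a typical HSF1 target, had 87.8, 88.8 and 84.4 TPM in replicates 1, 2 and 3. DNAJA1, the class A J-domain protein, had 201, 196 and 185 TPM, again with no overlap. The difference of DNAJB1 minus DNAJA1 was −1.16 ± 0.03 log2 units (exact sign-flip p = 0.25, adjusted p = 0.25, 3 of 3 libraries), and −0.68 with canonical transcript lengths. DNAJB1 is on chromosome 19 (14514770 to 14529770, minus strand), where 5.75% of its exon bases overlap TECR. The ranges of HSPE1 and DNAJB1 overlapped, and HSPE1 was lower than DNAJB1 in replicate 3. Those of HSPH1 and HSPE1 overlapped too, although with merged exon lengths HSPH1 was higher within each of the 3 libraries.

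In the mitochondrial pair, HSPD1 stood above HSPE1. HSPD1, the chaperonin, had 468, 510.2 and 443 TPM in replicates 1, 2 and 3. HSPE1, its co-chaperonin, had 91.9, 98.2 and 82.1 TPM. Both were highest in replicate 2 and lowest in replicate 3. The difference was 2.39 ± 0.04 log2 units or 5.22-fold (exact sign-flip p = 0.25, adjusted p = 0.25, 3 of 3 libraries).

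Part of HSPE1 was not countable by itself. Its merged exons cover 197499994 to 197503457 of chromosome 2 (plus strand), and 23.9% of their bases are shared with other genes: 14.2% with HSPD1 on the opposite strand and 9.71% with the readthrough gene HSPE1-MOB4. Those 1977 bases are 3.55 times the 557 bases of its canonical transcript, whereas for HSPD1 (197486581 to 197516737, minus strand) the ratio was 1.89. With canonical lengths HSPE1 lay at 213 ± 18.7 TPM and HSPD1 at 593 ± 41.5 TPM, and the difference was 1.48 log2 units. It was 3.49 without length scaling and 2.61 with lengths of words found once. When words touching another gene were also left out, it was 2.26. HSPA9, the mitochondrial HSP70, was below the cytosolic HSPA8 by a difference of −2.18 ± 0.08 log2 units (243 ± 13.2 TPM for HSPA9, exact sign-flip p = 0.25, adjusted p = 0.25, 3 of 3 libraries), and by −3.17 with canonical lengths.

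**Figure D3:**
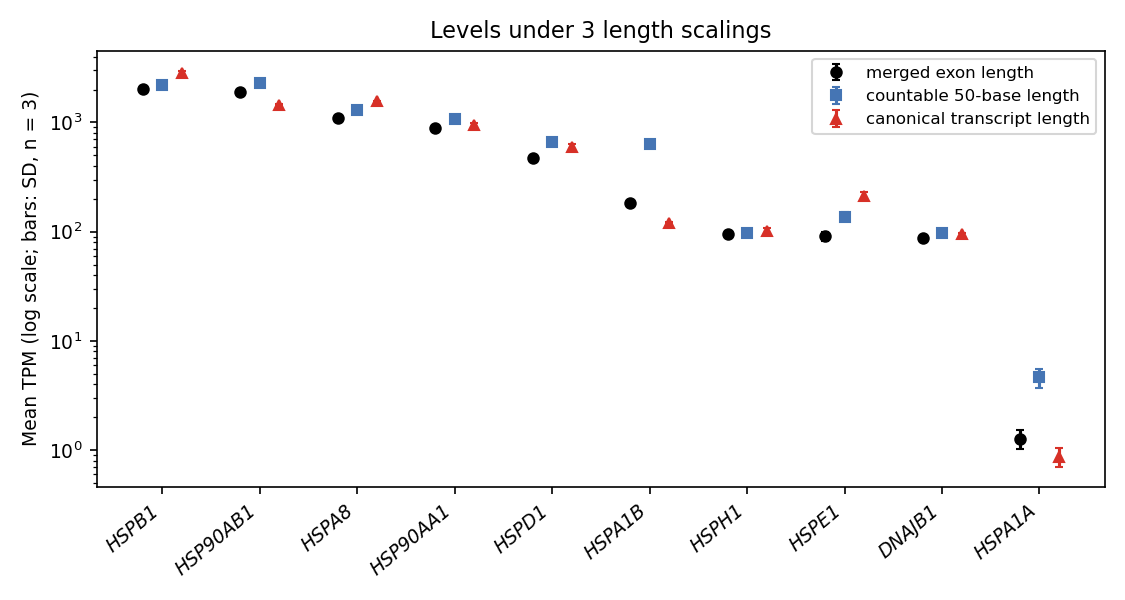
Mean TPM of each member (log axis, bars SD over 3 libraries) with merged exon length, with TPM divided by the countable share of 50-base words, and with canonical transcript length. HSPB1, HSP90AB1, HSPA8 and HSP90AA1 hold the first 4 places in each, and HSPA1A stays lowest.

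Length scaling changed the order only in places. With canonical transcripts HSPB1 was first at 2830.3 ± 151 TPM, and HSPA8 (1561 ± 23.0 TPM) stood above HSP90AB1 (1455 ± 20.5 TPM), with no overlap of their ranges. HSPE1 moved above HSPA1B (121 ± 0.180 TPM) and HSPH1 (102 ± 5.15 TPM). With TPM divided by the countable share, HSP90AB1 (2315 ± 37.0) stood above HSPB1 (2198 ± 115.7), and HSPA1B reached 639 ± 0.994 beside HSPD1 at 660.1 ± 47.1. There too HSPE1 (138 ± 12.3) stood above HSPH1 (96.3 ± 5.02), which fell to place 9. HSPA1A was lowest in each, at 4.63 ± 0.889 in the second and 0.872 ± 0.169 in the first.

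Many members have processed pseudogenes, and few counted reads fell in them. Reads that map to several places were dropped. Reads lying wholly in sequence that a pseudogene shares exactly with its member are therefore in neither count. Among names made of a member's symbol and a numbered P, 65 pseudogenes were found, 26 of HSPE1, 18 of HSPD1, 17 of HSPA8, 2 of HSPB1 and 2 of DNAJB1. Of these 9 were detected and 31 had 0 reads. Of these names HSPA8P3 was highest in reads with 84, 61 and 56, followed by HSPA8P14 with 63, 42 and 45 and HSPA8P15 with 56, 43 and 27. The pseudogene reads came to 0.104% of the members' own reads. The share was 3.34% for HSPE1, the largest, and 0.226% for HSPA8. With HSP90 pseudogenes that carry the family's own numbering, a set added after the values were seen, the total was 76 pseudogenes and 0.155%. In that set HSP90AB4P had 82, 67 and 51 reads and HSP90AB2P 76, 54 and 54.

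Exact copies outside the pair on chromosome 6 lay in pseudogenes, within the bounds of other genes, and at places that no gene of the count tables spanned. Each copy was named by the spanning gene with the lowest start position. A pseudogene inside a longer gene can therefore be listed under that gene. The largest such share was 14.3% of the words of HSPD1, found within CDH12. For HSPD1, 5.62% of the words had a copy that no gene spanned. HSP90AB3P held copies of 13.0% of the words of HSP90AB1, HSP90AA2P of 6.56% of those of HSP90AA1, and HSPB1P1 of 5.92% of those of HSPB1. The share of words found once and touching no other gene was 71.8% in HSPD1, 65.9% in HSPE1, 81.4% in HSP90AB1, 81.5% in HSP90AA1, 84.2% in HSPA8, 89.0% in DNAJB1 and 92.4% in HSPB1.

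Members varied between the replicates beyond counting noise in most cases, as did most genes of their depth. For each of 21039 detected genes a chi-square test asked whether its 3 counts followed the library sizes after TMM scaling, and p-values were adjusted by Benjamini-Hochberg over these genes. It called 8 of 10 members at an adjusted p under 0.05, where 46.1% of all detected genes were called. At a mean of at least 10000 reads, 6 of 6 members varied, beside 85.6% of genes. At 1000 to 10000 reads 2 of 3 members varied, beside 62.5% of genes with at least 1000. When the statistic was divided by 2, to allow for mates counted separately, 7 of 10 members were called, beside 17.6% of all detected genes, 33.2% of those with at least 1000 reads and 68.8% of those with at least 10000. By depth, the divided statistic called 6 of 6 members with at least 10000 reads, 1 of 3 with 1000 to 10000 and 0 of 1 below. With the divided statistic the 6 of 6 members exceeded the share of 68.8%. Classes of 6 and 3 hold too few genes to set the members apart from others of like depth, and no test compared these shares. The shares for at least 1000 reads include the genes with at least 10000.

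**Figure D4:**
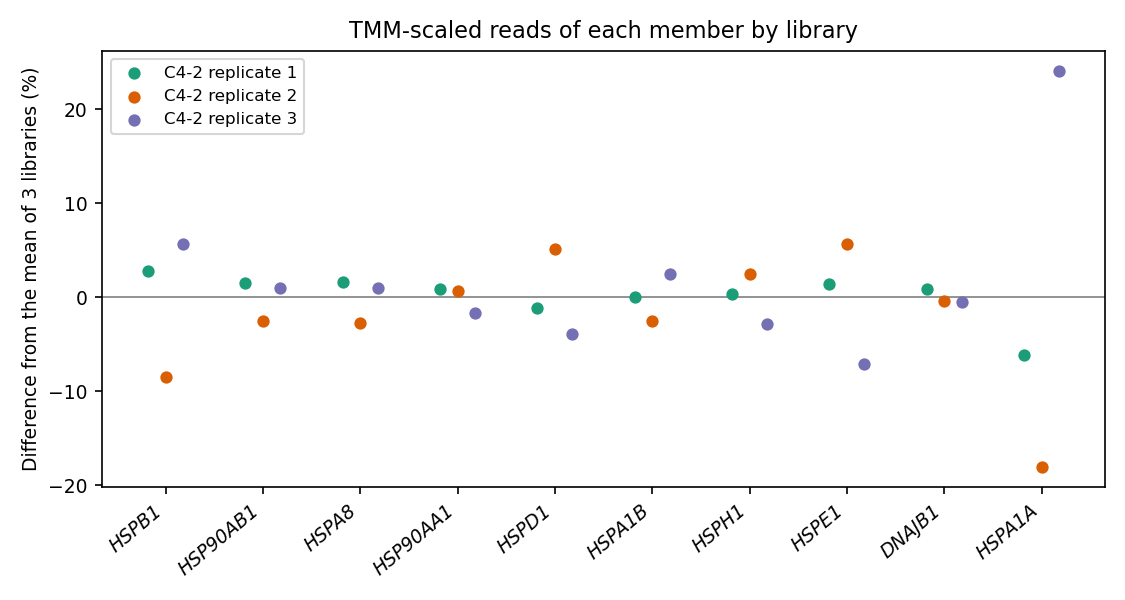
Difference of each library's TMM-scaled reads from the mean of the 3 libraries (%), by member in order of level, with points for replicates 1, 2 and 3. HSPB1 is low in replicate 2, HSPD1 and HSPE1 are high there, and HSPA1A spreads most, on 41 to 64 reads.

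HSPB1 showed the widest spread of the deeply counted members. Its highest TMM-scaled count was 1.15 times its lowest (adjusted p = 9.44e-127, and 2.94e-62 with the statistic divided by 2), beside a median of 1.06 and a 90th percentile of 1.13 over 945 genes with at least 10000 reads. HSPD1 had a ratio of 1.09 (adjusted p = 1.28e-28). HSPE1, counted less deeply, had 1.14 (adjusted p = 4.13e-05), where genes of 1000 to 10000 reads had a median of 1.08. HSP90AB1, HSPA8, HSPH1 and HSP90AA1 had ratios of 1.04, 1.05, 1.06 and 1.03, all below the median of 1.065 for genes with at least 10000 reads. Their adjusted p-values ran from 1.09e-19 to 0.000412. With the statistic divided by 2 they ran from 3.07e-09 (HSPA8) to 0.0487 (HSPH1). HSPD1 and HSPE1 then had adjusted p = 1.36e-13 and 0.0182. All p-values of this paragraph come from the chi-square test across detected genes.

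The members did not share a direction between libraries. On TMM-scaled reads 4 members were highest in replicate 1, 3 in replicate 2 and 3 in replicate 3, and 5 were lowest in each of replicates 2 and 3. HSPB1, HSP90AB1, HSPA8, HSPA1B and HSPA1A were lowest in replicate 2, while HSPD1, HSPH1 and HSPE1 were highest in it. HSPA1B passed the chi-square test (adjusted p = 0.0244) but not after division by 2 (adjusted p = 0.251). DNAJB1 (adjusted p = 0.806) and HSPA1A (adjusted p = 0.150) did not pass the chi-square test, and at 41 to 64 reads only a large difference in HSPA1A could have been detected. Which members passed rested partly on single libraries: 5 were called without replicate 2 and 4 without replicate 3. Without replicate 2 the chi-square calls of HSP90AB1, HSPA8 and HSPA1B were lost (adjusted p = 0.411, 0.351 and 0.29). Without replicate 3 those of HSP90AA1, HSPH1, HSPE1 and HSPA1B were lost (adjusted p = 0.812, 0.216, 0.243 and 0.24).

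The other chaperone lists give the setting of the 10 members. They are selections by role, made with earlier results of these data known, and no test was run on them. Every gene of these chaperone lists was detected, which describes the genes listed and not whole families. Of the small heat shock proteins 6 of 10 were detected, beside 71.8% of protein-coding genes. Of all protein-coding genes, 62.7% reached 1 TPM. In the HSP70 and HSP110 family 16 of 16 genes were detected and 14 reached 1 TPM, with a median of 20.4 TPM. After HSPA8 came HSPA5, the chaperone of the endoplasmic reticulum, at 954 ± 27.4 TPM and HSPA9 at 243 ± 13.2 TPM. HSPA6, a strictly stress-inducible HSP70 of human cells, had 26, 14 and 14 reads, or 0.463 ± 0.165 TPM. HSPA1L, the testis HSP70 beside HSPA1A, had 58, 126 and 85 reads, or 2.19 ± 0.944 TPM. HSPA6 and HSPA1L were chosen after their values were seen.

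In the HSP90 family 4 of 4 genes exceeded 100 TPM. HSP90B1 of the endoplasmic reticulum followed the cytosolic forms at 577 ± 26.6 TPM, and TRAP1, the mitochondrial HSP90, lay at 105 ± 1.77 TPM. All 13 listed HSP90 co-chaperones were detected, with a median of 133 TPM. They were led by PTGES3, the p23 protein, at 304 ± 32.3 TPM, CDC37, which brings kinases to HSP90, at 297 ± 13.3 TPM, and the steroid receptor immunophilin FKBP4 at 249 ± 6.32 TPM.

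All 21 listed J-domain genes were detected and 20 reached 1 TPM. At the top were DNAJA1 at 194 ± 8.06 TPM, DNAJC5 at 139.7 ± 3.09 TPM and DNAJC8 at 121 ± 3.49 TPM. All 10 genes listed as BAG proteins or nucleotide exchange factors reached 1 TPM. The highest were BAG6 at 247 ± 4.31 TPM, the inducible BAG3 at 115 ± 7.88 TPM and HSPBP1 at 102 ± 7.52 TPM. The cytosolic chaperonin TRiC, which folds actin and tubulin, had 8 of 9 subunit genes above 100 TPM and a median of 236 TPM, with CCT3 at 396 ± 7.94 TPM, CCT6A at 286 ± 16.6 TPM and TCP1 at 254 ± 11.0 TPM. Its feeder prefoldin had a median of 68.7 TPM over 6 genes, led by PFDN2 at 332 ± 14.1 TPM, PFDN5 at 79.8 ± 4.02 TPM and VBP1 at 79.4 ± 13.7 TPM. In the mitochondrial list all 15 genes reached 1 TPM (median 61.8 TPM), and HSPD1 was the highest, ahead of HSPA9 and the protease LONP1 at 242 ± 9.97 TPM.

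**Figure D5:**
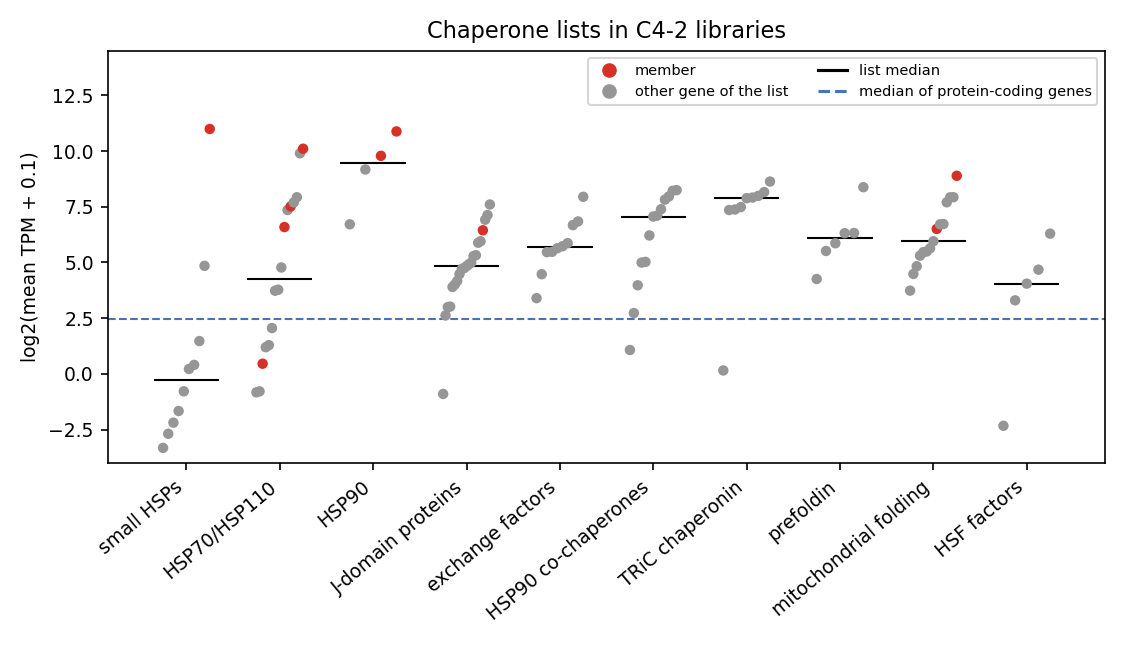
Mean level of each gene, as log2(TPM + 0.1), by chaperone list, with members in red, other genes in grey, list medians as bars and the protein-coding median as a dashed line. HSPB1 stands far above the other small heat shock proteins, whose list median is 0.773 TPM.

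Of the heat shock transcription factors listed, HSF1, the main stress factor, was highest at 78.3 ± 3.45 TPM. HSF2 lay at 16.5 ± 1.14 TPM and HSF4 at 9.75 ± 1.24 TPM. HSBP1, which binds HSF1 and is not counted among these factors, lay at 25.5 ± 1.73 TPM. HSF5 had 12, 4 and 4 reads and was not detected by the rule of 10 reads in every library. Of 18 genes of the textbook heat shock response, 8 of which are members, all 18 were detected and 16 reached 1 TPM, with a median of 51.3 TPM. HSPB1 and HSP90AA1 were the highest of them. The 2 under 1 TPM, HSPA6 and DNAJA4, were chosen after their values were seen (0.463 and 0.435 TPM).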

How the data were processed

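Per the file headers, the authors deposited raw counts, made per gene with featureCounts 1.6.3 over the exons of Ensembl release 90 on GRCh38, with no option on strand, multi-mapping or pairs. In that mode strand is ignored and reads that map to several places or touch several genes are dropped, so reads of a gene and its antisense partner cannot be told apart. Per the submitters' processing notes, STAR 2.7.0f, Trim Galore and FastQC were used, and per the labels' protocols RNA was depleted of ribosomal RNA with 770 ng as input. Per the file headers, the deposited length column gives the merged exon length, checked against the exons for the genes studied.

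The 10 members, the 14 other gene lists and the 8 pairs were chosen with earlier results of these data known. The named genes are the members, the second genes of the pairs, the top 3 of each list and genes with 0 reads. So are all genes of the HSF list. Of pseudogenes with names made of a member's symbol and a numbered P, the 3 with most reads are named. Exceptions are stated. Symbols came from GENCODE release 44, which matched 57532 of 58302 identifiers (98.7%). TPM used the counts and merged exon lengths of all genes, and log2 values are log2(TPM + 0.1). Variation was tested by chi-square with TMM factors from edgeR 4.0.16 in R 4.3.3, after a test on simulated data. DESeq2 1.42.0 gave size factors for an alternative. Words of 50 and 100 bases were matched exactly on both strands of hg38, the same build as the files. Words that span a junction were not counted, and canonical transcripts were those tagged in GENCODE. Python 3.11.15 was used. Reads carry no molecular identifiers, so limits on a count of 0 (3 reads) cover counting error only. Some genes of the lists are not reported here by name.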

Additional observations from a re-analysis of the deposited data

How the results depend on the processing

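All 8 pair differences kept their sign under every alternative run (pseudocount, length scaling, leaving out a library), with none able to pass 0.05. HSPB1 minus CRYAB ran from 9.69 to 10.70 and HSPA1B minus HSPA1A from 6.34 to 7.21 over them. Over all genes, 3699 were called with the statistic divided by 2, against 9694, and 5180 to 7092 when a replicate was left out. Of the members, 4 to 8 were called when a replicate was left out, on fewer samples, and 7 with library totals in place of TMM. With no filter 13589 of 35555 genes were called. The median level of the members, 328 TPM, was 499 TPM over nuclear protein-coding genes alone, 617 and 549.96 TPM with lengths of words found once (50 and 100 bases), 649.7 TPM when words touching other genes were also left out, and 403 TPM with canonical transcripts; the last pair of settings was chosen after seeing the data. The median ran from 319 to 336 TPM when a replicate was left out. Pair differences ran as follows when a replicate was left out: HSP90AB1 minus HSP90AA1 1.08 to 1.12, HSPA1B minus HSPA1A 6.97 to 7.21, HSPD1 minus HSPE1 2.36 to 2.40. With 1 TPM in every library as the rule, 111 of 136 list genes passed, and 128 with 1 read, against 121. No paired analysis was possible because the 3 libraries form 1 group, so replicate numbers pair no samples across groups; gene pairs were compared within each library. The depth limits HSPA1A most, at 155 reads in all.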
